A study of Mus musculus with 2 samples.

Results

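Cluster 12 is one of the clusters of CD8αβ T cells in mouse liver, and its cells are described here against the other CD8αβ T cells and between genotypes. Its members are the cells that the deposited annotation names cd8ab and places in cluster 12 at a clustering resolution of 1.2. They number 322 of the 1839 CD8αβ T cells and of the 11929 liver CD45+ cells annotated in all, and every cell with that cluster number carries the cd8ab name. Of these 322 cells, 249 came from TG mice and 73 from WT mice.

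In TG mice the mouse CD4 promoter drives dnTGFβRII, a human TGF-β receptor type II made dominant negative, in T cells. The mice model primary biliary cholangitis, an autoimmune disease of the small bile ducts. WT mice are C57BL/6, the strain that the TG mice share. All mice are labelled as aged 10 weeks, while a younger age stands in the study's methods. TG cells were captured in a library pooled with cells of IFN-γ ARE-Del-/- mice, and WT cells in a library pooled with cells of p40-/-IL-2Rα-/- mice. There was 1 library for each genotype, so no test was made between genotypes, and a difference of genotype cannot be told apart from one of capture library. The number of mice in each pool was not given in the sources used here. Intervals below are 95% intervals and cover counting error only, since cells of a library are not replicates.

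KLRG1 is an inhibitory lectin-like receptor of late effector CD8 T cells and NK cells, and CX3CR1 is the receptor for fractalkine on effector cells that patrol the blood vessels. S1PR5 is a sphingosine 1-phosphate receptor of cells that leave tissues for the blood, and the transcription factor ZEB2 acts with T-bet in terminal effector differentiation. Granzymes are proteases delivered into target cells, and granzyme K is more typical of memory-like than of terminal effector T cells. TGF-β restrains effector differentiation and supports tissue residency of CD8 T cells.

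The promoters of genes that follow are shown because Cx3cr1 and S1pr5 were high together in cluster 12, Gzma, which encodes granzyme A, had the highest ratio of TG to WT among the ranked genes, and Gzmk, which encodes granzyme K, was within 2-fold between genotypes. Each is the 250 bases before the start of the transcript (RefSeq, GRCm38.p6), 5′ to 3′ on the coding strand, which is the minus strand for all of them. Capitals mark matches on either strand to CAGGTG, an E-box of the kind that ZEB proteins bind, and to AGGTGT, the core of a T-box site.
Cx3cr1, chr9:120068297-120068546: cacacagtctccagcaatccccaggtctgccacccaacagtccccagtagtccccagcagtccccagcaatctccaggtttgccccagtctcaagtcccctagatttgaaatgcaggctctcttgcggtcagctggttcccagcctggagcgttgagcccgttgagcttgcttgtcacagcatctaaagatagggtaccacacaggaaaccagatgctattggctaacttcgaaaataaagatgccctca
S1pr5, chr9:21248444-21248693: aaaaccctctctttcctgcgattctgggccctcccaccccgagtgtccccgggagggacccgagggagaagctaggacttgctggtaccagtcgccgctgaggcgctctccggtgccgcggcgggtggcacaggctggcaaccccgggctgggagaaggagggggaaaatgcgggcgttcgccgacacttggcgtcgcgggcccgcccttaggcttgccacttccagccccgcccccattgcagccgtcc
Gzmk, chr13:113180966-113181215: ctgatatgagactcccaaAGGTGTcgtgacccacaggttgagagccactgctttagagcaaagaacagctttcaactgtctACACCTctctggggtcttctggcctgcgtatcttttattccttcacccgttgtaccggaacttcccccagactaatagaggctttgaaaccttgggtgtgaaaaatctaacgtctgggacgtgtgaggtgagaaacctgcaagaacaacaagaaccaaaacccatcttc
Gzma, chr13:113100982-113101231: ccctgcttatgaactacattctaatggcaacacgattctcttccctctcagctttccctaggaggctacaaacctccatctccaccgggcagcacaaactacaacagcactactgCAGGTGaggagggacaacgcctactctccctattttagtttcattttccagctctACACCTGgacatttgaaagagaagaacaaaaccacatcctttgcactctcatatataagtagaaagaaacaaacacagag
The Cx3cr1 and S1pr5 windows held neither motif. The Gzmk window held AGGTGT at −232 and −169 from the start, and the Gzma window held CAGGTG at −135 and −79, with AGGTGT at −80 overlapping the second of these. CAGGTG was found in 17.2% and AGGTGT in 11.8% of 32851 promoter windows. A match is a stretch of letters and no evidence of binding.

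The genes themselves lie on the minus strand of GRCm38 (GENCODE annotation), Klrg1 at chr6:122270596-122282882, Cx3cr1 at chr9:119901616-120069879, S1pr5 at chr9:21242912-21248443, Zeb2 at chr2:44983632-45117395, Gzmk at chr13:113171608-113225908 and Gzma at chr13:113093825-113100981. All are protein coding. The Cx3cr1 and Gzmk windows above lie inside these gene spans, so the RefSeq start used for them is not the outermost start in GENCODE. Klrg1 had 0 promoter entries and Zeb2 had 4, and no window is shown for either.

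The cd8ab name was checked against coreceptor and receptor genes before any comparison. The 6 markers of CD8αβ T cells (Cd3e, Cd3d, Cd3g, Trac, Cd8a, Cd8b1) were all detected in cluster 12 and summed to 5610 CPM (UMIs scaled to 1e+06 UMIs of the cell set) in TG and 6602 CPM in WT. The CD4 antibody, read as the deposited natural-log centred ratio within a cell, split the cluster. In TG, 49 cells held a Cd4 UMI and no Cd8a or Cd8b1 UMI, and their median CD4 antibody value was 3.79, near the 3.71 of cells that the annotation names CD4 T cells. The 137 TG cells with a Cd8 UMI and no Cd4 UMI had a median of 1.22. In WT the medians were 3.44 over 12 cells of the first kind and 0.80 over 54 cells of the second.

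A value of 2.5, chosen after the values were seen, was used to divide the cells. At or above it lay 56 of 249 TG cells, or 22.5% (17.5 to 28.2), and 20 of the 73 from WT, or 27.4% (17.6 to 39.1), while 19 TG and 7 WT cells lay between 2 and 3. Such cells were not particular to cluster 12, since they made up 27.3% of TG and 40.9% of WT cells of cluster 7, 29.7% of WT cluster 18, and 12.5% and 12.6% of all the other CD8αβ T cells. In the naive-like cluster 4 the share was 1.38% in TG and 3.58% in WT, and in named CD4 T cells it was 89.5% and 91.3%. The TG cells of cluster 12 at or above 2.5 held Cd4 at 930 CPM, Cd8a at 68.7 CPM and Cd8b1 at 49.9 CPM, and the other TG cells of the cluster held them at 113, 1099 and 1191 CPM. Zbtb7b, the CD4 lineage factor ThPOK, was at 112 CPM in the first and 33.1 CPM in the second. In WT the cells at or above 2.5 held Cd4 at 580, Cd8a at 387 and Cd8b1 at 902 CPM, so transcripts of both coreceptors were found in that smaller set.

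A part of the cluster in both libraries therefore went against its name by the CD4 antibody, and the values that follow are given for all members and, where they differ, for the CD4-low cells, which number 193 in TG and 53 in WT. Of these, 181 TG cells (93.8%) and 50 WT cells (94.3%) held a Cd8a or Cd8b1 UMI. The CD8β antibody had a median of 1.99 in CD4-low and 0.34 in CD4-high TG cells of the cluster, and of 2.002 and 0.51 in WT. It was at 0.42 in NK cluster 8 of TG, but at 1.63 in TG B cells.

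**Figure D1:**
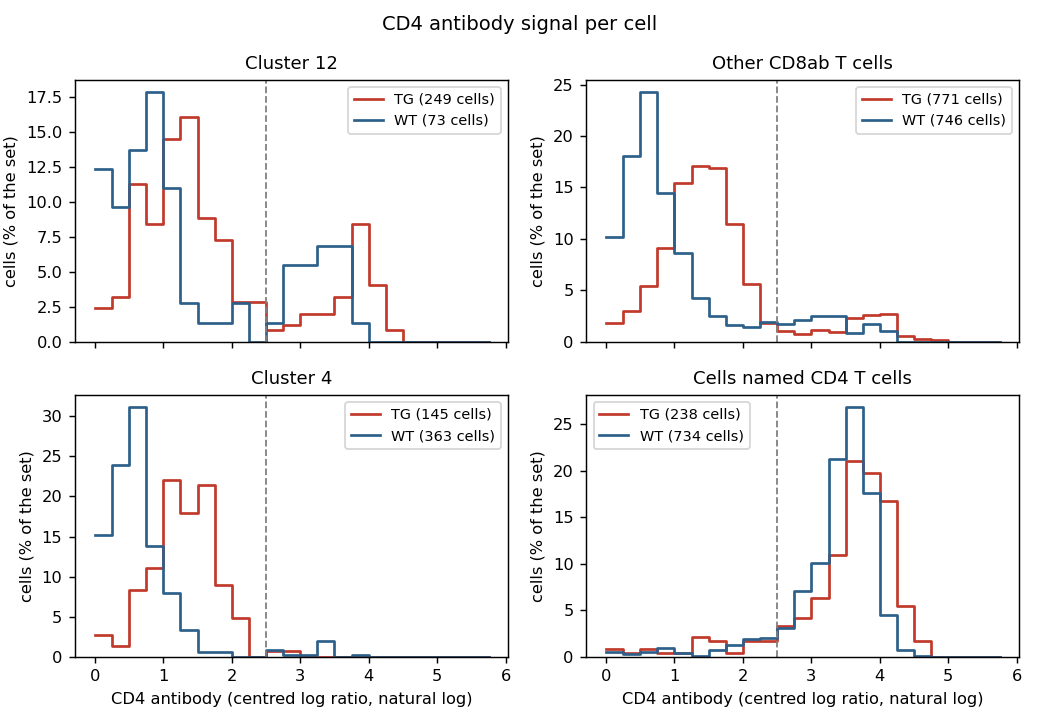
Histograms of the deposited CD4 antibody value (natural-log centred ratio, x axis) against the share of cells (y axis) for TG and WT cells of cluster 12, the other CD8αβ T cells, cluster 4 and the named CD4 T cells, with a dashed line at 2.5. Cluster 12 has a main group of low values and a smaller one, 22.5% of TG and 27.4% of WT cells, that overlaps the named CD4 T cells.

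A smaller set of cells carried transcripts of the γδ T cell receptor. Trdc, its δ constant region on chr14:54142851-54148868, had a UMI in 26 of the 249 cells from TG (10.4%, 6.94 to 14.9) and in 3 of the 73 from WT (4.11%, 0.856 to 11.5), against 1.12% of TG and 0.602% of WT B cells. In the other CD8αβ T cells, which are deeper, the share was 4.93% in TG and 5.09% in WT. In NK cluster 8 it was 20.9% and 26.5%. At equal depth the share was 9.24% (5.95 to 13.5) in TG cluster 12 and 2.20% (1.29 to 3.51) in the other TG cells. In WT it was 4.11% (0.856 to 11.5) in cluster 12 and 2.95% (1.86 to 4.43) in the other cells, with intervals that overlap. In the 26 TG cells Tcrg-C1 was at 708 CPM against 18.1 CPM in the other TG cells of the cluster, Trac was at 680 against 1255 CPM, and the median TCRβ antibody value was 1.35 against 2.78. These cells still held Klrg1 at 694 CPM and Cx3cr1 at 892 CPM, close to the 872 and 1041 CPM of the other cells. Markers of other lineages were low. The 7 NK markers (Ncr1, Klrb1c, Klra8, Klra4, Tyrobp, Fcer1g, Eomes) summed to 463 CPM in TG cells and 214 CPM in WT, against 9586 and 10829 CPM in NK cluster 8, and 4 of the 7 were detected in WT. Zbtb16, which marks NKT cells, had 1 UMI in each genotype. B cell markers summed to 197 CPM in TG cells and 291 CPM in WT, against 13632 and 12379 CPM in B cells.

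The depth of the data limits the WT side. Cluster 12 held 734564 UMIs in TG and 219631 in WT, with medians of 2655 and 2464 UMIs per cell, and 1 UMI was worth 1.36 CPM in the TG sum and 4.55 CPM in the WT sum. The other CD8αβ T cells were deeper, at medians of 5472 and 3063.5 UMIs, and the proliferating cluster 7 reached 7454 and 6613.5. No cell of cluster 12 was called a doublet. Mitochondrial transcripts took a median of 4.84% of a TG cell and 5.78% of a WT cell. At least 2 UMIs of B lineage genes were found in 27 TG and 9 WT cells (10.8% and 12.3%). The library files share 267 cell numbers, of which 36 are shared by annotated TG and WT cells and 0 by TG and WT cells of cluster 12.

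Cluster 12 took a larger share of the CD8αβ T cells in TG than in WT. In TG it held 249 of 1020 cells, a share of 24.4% (21.8 to 27.2). In WT it held 73 of 819 cells, a share of 8.91% (7.05 to 11.1), so the TG share was 2.74-fold that of WT. With CD4-high cells left out of all clusters the shares were 22.2% of 868 cells and 7.52% of 705 cells. As a share of all annotated liver cells the cluster was 5.36% in TG and 1.00% in WT.

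The other clusters moved in different ways between the libraries. Cluster 4 was 14.2% of TG and 44.3% of WT CD8αβ T cells, cluster 7 was 31.3% and 16.1%, cluster 13 was 17.4% and 16.8%, cluster 18 was 11.3% and 4.52%, and cluster 23 was 1.47% and 9.28%. Shares sum to a fixed total, so a larger cluster 12 goes with a smaller share elsewhere. The marker genes of cluster 12 also differed between genotypes, as given below, so the shares describe cells placed in the cluster and not cells of equal marker content.

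**Figure D2:**
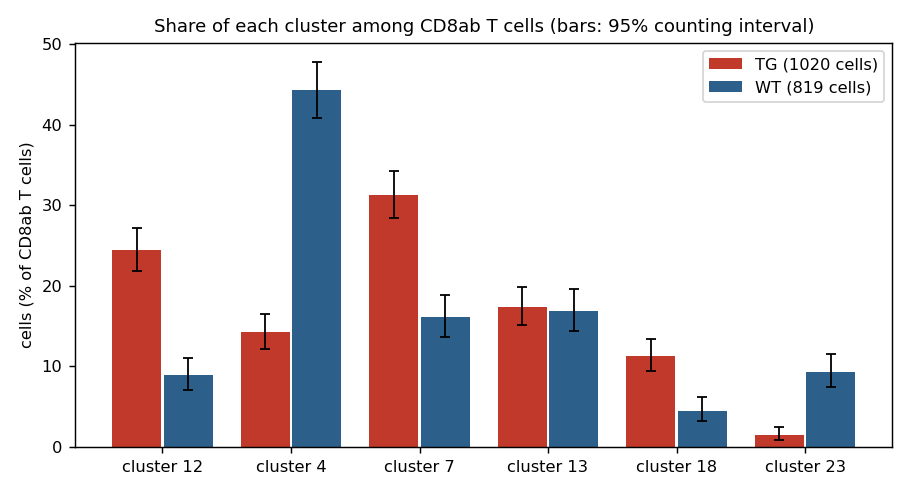
Share of CD8αβ T cells (y axis, percent) in each cluster for TG (1020 cells) and WT (819 cells), with exact binomial 95% intervals. Cluster 12 stands at 24.4% in TG and 8.91% in WT, and cluster 4 at 14.2% and 44.3%.

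The given markers were highest in cluster 12 among the CD8αβ clusters, with the exception of Gzmk. In TG, Klrg1 was at 855 CPM (628 UMIs) in cluster 12 and at 271 CPM in the other CD8αβ T cells together. By cluster it was 502 CPM in cluster 7, 106 in cluster 23, 34.0 in cluster 18, 7.22 in cluster 13 and 1.39 in cluster 4. In WT it was at 168 CPM (37 UMIs) in cluster 12 and 29.9 CPM in the others. Most of the Klrg1 outside cluster 12 thus lay in the dividing cluster 7 in both genotypes.

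Cx3cr1 was at 1026 CPM in TG cluster 12 and 173 CPM in the other cells, and at 237 and 26.0 CPM in WT. S1pr5 was at 532 and 62.2 CPM in TG, and at 150 and 12.3 CPM in WT. Zeb2 was at 432 and 55.4 CPM in TG, and at 123 and 18.6 CPM in WT. The log2 ratios of cluster 12 to the other cells were 1.66 for Klrg1, 2.57 for Cx3cr1, 3.10 for S1pr5 and 2.96 for Zeb2 in TG, and 2.496, 3.19, 3.61 and 2.72 in WT. Since the cluster was defined on these same cells, these ratios describe the cluster and test nothing.

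Against cluster 7 alone, the TG ratio was 0.77 (0.63 to 0.91) for Klrg1, 1.69 (1.55 to 1.84) for Cx3cr1, 2.45 (2.21 to 2.69) for S1pr5 and 2.20 (1.95 to 2.45) for Zeb2. Klrg1 was thus the marker that cluster 7 shared most. Gzmk was at 136 CPM in TG cells and 182 CPM in WT, below the 659 and 557 CPM of cluster 23 and near the 102 and 180 CPM of cluster 18. It was therefore no marker that set cluster 12 apart from every other cluster.

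**Figure D3:**
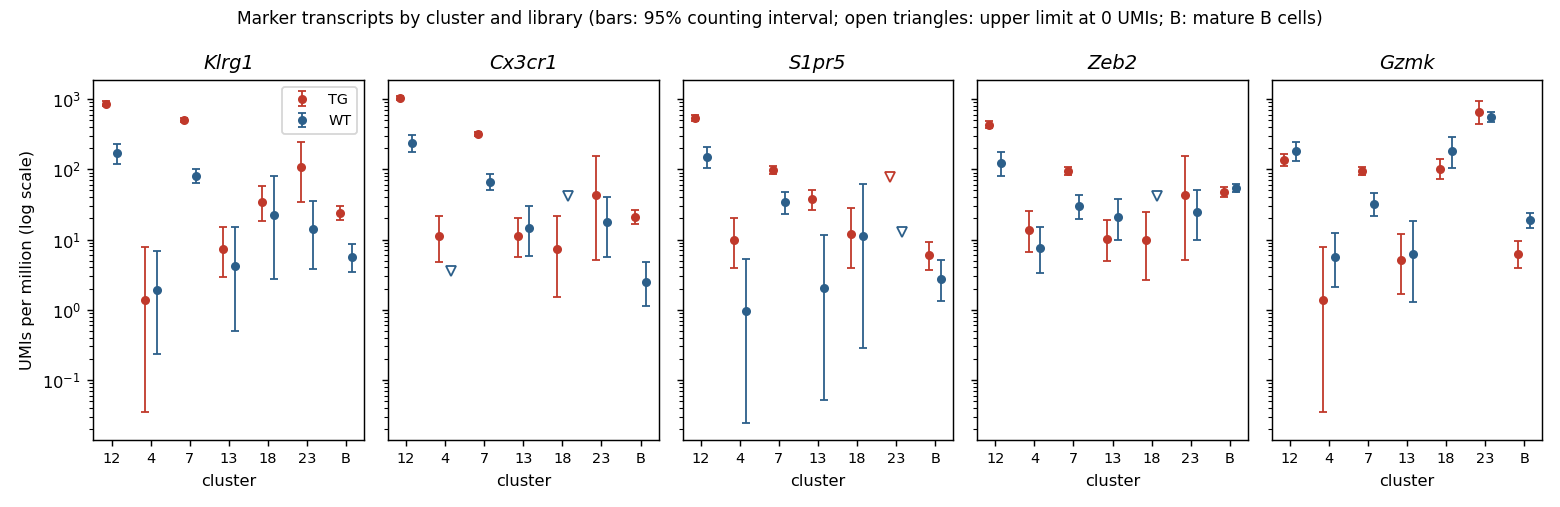
Level of Klrg1, Cx3cr1, S1pr5, Zeb2 and Gzmk (CPM, log axis, exact Poisson 95% intervals) in clusters 12, 4, 7, 13, 18 and 23 and in B cells of TG and WT. Open triangles mark the upper limit where no UMI was found. Klrg1 stands at 855 CPM in TG cluster 12 and 168 CPM in WT cluster 12, and Gzmk is highest in cluster 23.

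At equal depth Klrg1, Cx3cr1 and S1pr5 were found in more TG than WT cells of cluster 12. After every cell was thinned to 1000 UMIs, the share of cells with Klrg1 was 53.01% in TG (46.6 to 59.3) and 12.3% in WT (5.80 to 22.1), against 0.843% and 0.736% among B cells, which should lack it. Cx3cr1 was found in 57.0% and 21.9% and S1pr5 in 36.1% and 10.96%. Zeb2 was found in 29.7% (24.1 to 35.8) and 15.1% (7.77 to 25.4), with intervals that overlap, against 4.12% and 5.22% of B cells. Gzmk went the other way, at 8.84% in TG (5.62 to 13.1) and 16.4% in WT (8.79 to 26.95), and these intervals overlap too.

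Cells were then counted by how many of Klrg1, Cx3cr1, S1pr5 and Zeb2 they held, a count chosen after the levels were seen. In TG, 220 of 249 cells (88.4%) held at least 2 of the 4, 83 cells held all 4, and 2 cells held none. In WT, 24 of 73 cells (32.9%) held at least 2, 4 cells held all 4, and 35 cells (47.9%) held none. Thinned to equal depth, at least 2 were held by 58.6% in TG (52.2 to 64.8) and by 20.5% in WT (11.98 to 31.6). Among the other CD8αβ T cells at least 2 were found in 25.03% of TG and 2.95% of WT cells without thinning, and among B cells in 1.87% and 0.201%. In TG 184 of these other cells lay in cluster 7, where 57.7% held at least 2 and 59 cells held all 4, and in NK cluster 8 of TG the share was 69.9%. These shares are without thinning, and cluster 7 is deeper than cluster 12. At equal depth at least 2 were held in TG by 18.5% in cluster 7, 33.3% in NK cluster 8 and 8.04% of the other CD8αβ T cells. All 4 were then held by 1 cell of TG cluster 7. The WT members of the cluster were thus a mixture in which 35 cells had no UMI of these 4 genes. Gzmk was not part of this count, and some of the 35 cells held it.

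The CD4-high cells were no poorer in these markers than the CD4-low cells. At least 2 were held by 52 of 56 CD4-high TG cells (92.9%) and 168 of 193 CD4-low TG cells (87.0%). In WT they were held by 12 of 20 CD4-high cells and 12 of 53 CD4-low cells, of which 29 held none.

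**Figure D4:**
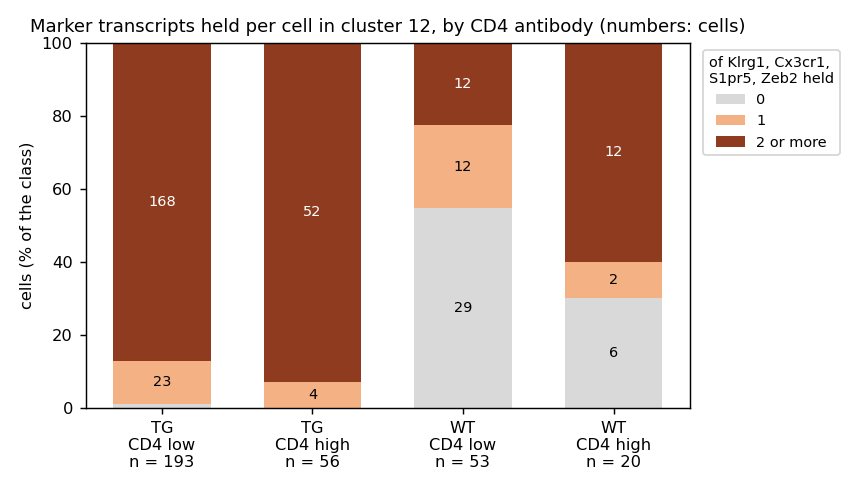
Share of cells of cluster 12 (y axis, percent) by how many of Klrg1, Cx3cr1, S1pr5 and Zeb2 they held, for CD4-low and CD4-high cells of TG (193 and 56) and WT (53 and 20). At least 2 of the 4 were held by 168 of the CD4-low TG cells and by 12 of the CD4-low WT cells.

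Across genes with at least 50 UMIs over both sums, cluster 12 was more than 2-fold above the other CD8αβ T cells for 321 of 8171 genes in TG (3.93%) and 294 of 6806 in WT (4.32%), and more than 2-fold below for 733 (8.97%) and 570 (8.37%). With totals that leave out ribosomal and mitochondrial genes the TG counts were 211 higher and 841 lower, and with TMM factors the WT counts were 194 and 676. Genes were ranked where they had at least 100 UMIs over both sums and 10 in each. The ranked gene in TG that stood furthest above was Kcnj8, a subunit of a potassium channel, at 170 CPM against 7.88 CPM. In WT it was at 36.4 against 3.51 CPM. Ccl5, a chemokine of effector T cells, was the most abundant of the ranked genes, at 28509 against 7114 CPM in TG and 16259 against 4914 CPM in WT. The markers S1pr5, Zeb2 and Cx3cr1 held ranks 2, 3 and 4 in TG. Rora, Il18rap, Rap1gap2, Ncald and Trdc made up the rest of the 10 genes highest in TG, with log2 ratios from 2.00 to 2.27 in TG and from 0.56 to 2.61 in WT. Trdc belongs there through the 26 cells described above.

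Most of the 10 ranked genes furthest below in TG act in cell division, and Il7r, a cytokine receptor chain, was also among them at −2.85. Of 22 measured in each genotype, 21 were more than 2-fold lower in TG and 21 in WT, with medians of −3.58 and −3.17 on the log2 scale against medians of 0.05 and 0.06 over all genes. Mki67, a marker of dividing cells, was at 39.5 CPM in TG cluster 12 against 606 CPM in the other cells, and at 27.3 against 346 CPM in WT. Cluster 7 is the proliferating one among the other cells. Without it the medians of the list were 0.59 and 0.84, and Mki67 in TG was 1.09 above the remaining cells on the log2 scale.

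Genes of effector function were higher in cluster 12 than in the other cells together in part of their lists. Of 13 genes of cytotoxic granules, 3 were more than 2-fold higher and 1 lower in TG, with a median of 0.55, and 2 were higher in WT, with a median of 0.63. Over all genes 3.93% were higher and 8.97% lower in TG, and 4.32% were higher in WT. At equal depth Gzmb was found in 51.4% of TG cluster 12 and 53.9% of TG cluster 7. In WT it was found in 26.0% of cluster 12 and 60.5% of cluster 23. Gzma was found in 86.7% and 73.0% of TG clusters 12 and 7, and in 32.9% and 52.6% of WT clusters 12 and 23. Fasl, the ligand of the death receptor Fas, was at 93.9 against 28.5 CPM in TG and at 41.0 against 27.8 CPM in WT. Nkg7, a granule protein, was at 2410 against 1478 CPM in TG and 2258 against 1032 CPM in WT. Prf1, which encodes the pore protein perforin, was within 2-fold, at 182 against 137 CPM in TG and 132 against 77.7 CPM in WT. On the same scale the medians of the 5 marker genes were 2.57 and 2.74.

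Among cytokine genes, Ifng was at 287 against 119 CPM in TG and 191 against 95.9 CPM in WT. Ccl4, a chemokine of activated T cells, was at 666 against 186 CPM in TG and at 342 against 230 CPM in WT. Xcl1, which attracts cross-presenting dendritic cells, was lower in both, at 10.9 against 73.8 CPM in TG and 18.2 against 84.0 CPM in WT. Of the list, 3 of 11 genes were higher and 2 lower in TG, and 3 of 10 were higher and 1 lower in WT.

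Of 14 effector transcription factors, 6 were more than 2-fold higher and 0 lower in TG (median 0.89), and 5 were higher and 1 lower in WT (median 0.71). Zeb2 is counted in that list. Tbx21, which encodes T-bet, was at 343 against 187 CPM in TG and 141 against 54.5 CPM in WT. Hopx, a homeodomain protein of effector and memory cells, was at 688 against 271 CPM and 501 against 175 CPM. Of the factors of memory and naive cells, 6 of 12 were lower in TG (median −1.07) and 3 of 13 in WT (median −0.77), and 0 were higher. Satb1, a chromatin organiser, was at 106 against 257 CPM in TG and 150 against 432 CPM in WT. Tcf7, which encodes TCF-1, was at 236 against 375 CPM in TG, but at 542 against 531 CPM in WT.

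Of 16 genes of circulation and adhesion measured in TG, 5 were higher and 1 lower, and of 15 in WT, 5 were higher and 1 lower. Cx3cr1 and S1pr5, which are markers, are counted among the higher, and most of the list was within 2-fold in both genotypes. Itga4, the α4 integrin CD49d, was at 1412 against 503 CPM in TG and 1279 against 514 CPM in WT. Ccr7, the receptor that guides cells to lymph nodes, was at 10.9 against 71.8 CPM in TG and 22.8 against 126 CPM in WT.

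Residency genes did not move together, with 0 of 14 higher and 2 lower in TG and 2 higher and 1 lower in WT. The chemokine receptor Cxcr3 was at 53.1 against 160 CPM in TG and at 205 against 102 CPM in WT, on opposite sides of the other cells. Ccr2, a receptor for monocyte chemoattractant, showed the same pattern at 55.8 against 89.3 CPM and 205 against 106 CPM. Il7r, the IL-7 receptor of long-lived T cells, was at 66.7 against 480 CPM in TG and 455 against 726 CPM in WT. At equal depth it was found in 4.42% of TG cells of cluster 12 and 5.02% of TG cluster 7. In TG clusters 4, 13, 18 and 23 it was found in 53.8%, 57.1%, 40% and 20%. Low Il7r thus did not set TG cluster 12 apart from cluster 7. In WT, Il7r was found in 26.0% of cluster 12, 13.6% of cluster 7 and 14.5% of cluster 23. WT clusters 18, 4 and 13 stood at 29.7%, 61.4% and 65.2%.

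Of genes measured in both genotypes (6768), 201 were higher in cluster 12 in TG and 293 in WT, and 59 were in both sets, which is 29.4% of the first and 20.1% of the second. For lower genes the counts were 517, 551 and 264, which is 51.1% and 47.9%. Over all genes measured in WT, 4.32% were higher and 8.37% lower. Of the 201 and 517 genes of TG, 170 (84.6%) and 441 (85.3%) had the same sign in WT. Past 2-fold the other way in WT were 4 and 8 of them. Many genes above the other cells in one genotype were thus within 2-fold in the other, mostly with the same sign, and WT counts are lower.

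Between genotypes, 157 of 3352 genes in cluster 12 were more than 2-fold higher in TG (4.68%) and 65 were lower (1.94%). Over the other CD8αβ T cells 2.73% and 1.64% of 8816 genes were past this limit, and over B cells 1.1% and 1.53% of 8489. These tables have different minima in CPM. The TG sum of cluster 12 holds most of the UMIs, so the minimum of 50 UMIs favours genes that are high in TG. The leading ranked genes were Gzma, the lectin-like receptor Klre1, Klrg1, Cx3cr1, Il18rap, S1pr5 and Zeb2 above, and Emb, Il7r and Cd28 below.

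Klrg1 was at 855 CPM in TG cells and 168 CPM in WT, a log2 ratio of 2.34 (1.86 to 2.86). Cx3cr1 was at 1026 and 237 CPM, a ratio of 2.12 (1.71 to 2.55). S1pr5, at 532 and 150 CPM, had a ratio of 1.82 (1.31 to 2.38), and Zeb2, at 432 and 123 CPM, one of 1.81 (1.24 to 2.44). All 4 markers were thus above WT beyond counting error. Gzmk was at 136 and 182 CPM, a ratio of −0.42 (−0.96 to 0.15) that counting error spans. The same 4 markers were also higher in TG over the other CD8αβ T cells, with ratios of 3.18, 2.74, 2.34 and 1.57. Those cells differ in make-up, with cluster 4 giving 145 of 771 in TG and 363 of 746 in WT. Their ratios thus mix cluster content with level. Within cluster 7 all 5 given markers were more than 2-fold higher in TG, with a median of 1.63. A difference between genotypes was therefore not particular to cluster 12. In B cells, which should lack these markers, Klrg1 was at 24.1 CPM in TG against 5.57 CPM in WT and Cx3cr1 at 21.1 against 2.505 CPM.

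The count of markers held by a cell moved with this difference. In cells with at least 2 of the 4 markers, 220 in TG and 24 in WT, the ratio was 0.64 (0.14 to 1.18) for Klrg1, 0.51 (0.08 to 0.99) for Cx3cr1, 0.09 for S1pr5 and 0.24 for Zeb2. Those cells were chosen by these genes, so the values are a description. CD4-high were 52 of these TG cells and 12 of these WT cells. Values given for this class here and below therefore also mix CD4 content. In CD4-low cells the ratios were 2.64 for Klrg1, 2.56 for Cx3cr1, 2.55 for S1pr5 and 1.97 for Zeb2. They were thus as large without the CD4-high cells, and smaller among cells that held the markers.

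**Figure D5:**
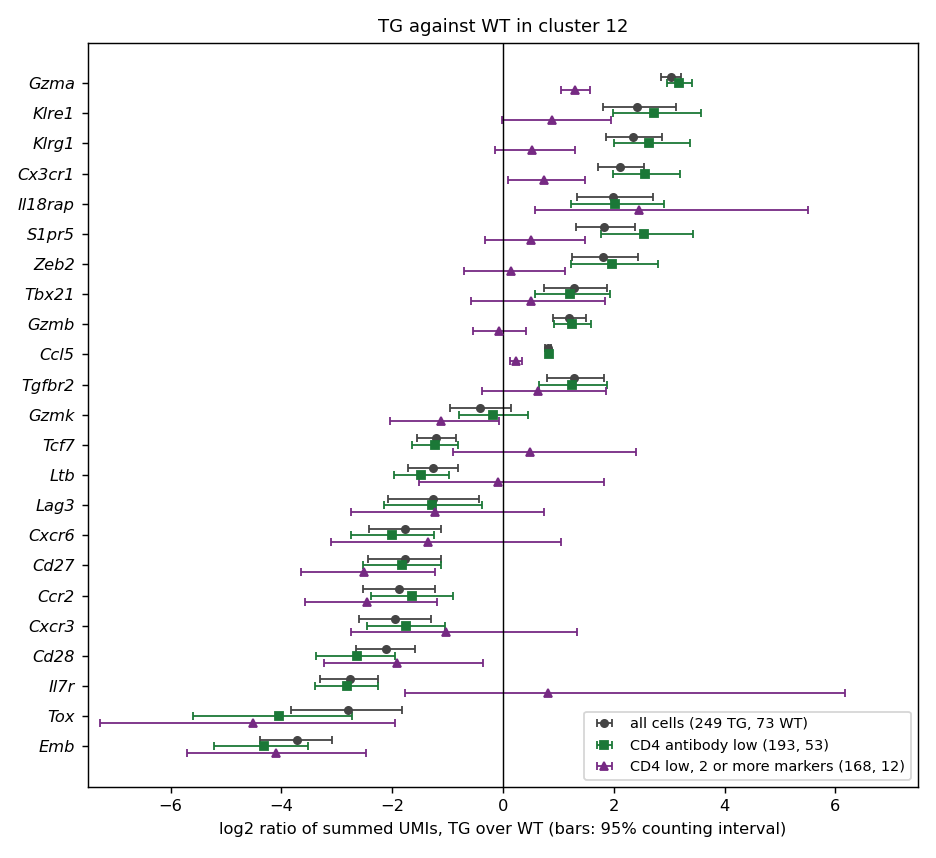
Log2 ratio of TG to WT (x axis, exact 95% intervals for counting error) for 23 genes in all cells of cluster 12 (249 TG, 73 WT), in CD4-low cells (193, 53) and in CD4-low cells with at least 2 of the 4 markers (168, 12). Gzma stays above 1 in all 3 sets and Emb below −3, while Klrg1 goes from 2.34 to 0.53.

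Gzma had the highest ratio among the ranked genes. It was at 9724 CPM in TG (7143 UMIs) and 1188 CPM in WT (261 UMIs), a log2 ratio of 3.03 (2.85 to 3.22), and its ratio in cells with at least 2 markers was 1.56 (1.35 to 1.77). In CD4-low cells with at least 2 markers it was 1.31 (1.05 to 1.57). In the other CD8αβ T cells Gzma was at 4549 CPM in TG cells and 1003 CPM in WT, a ratio of 2.18 (2.12 to 2.24). Gzma also stood at 423 CPM in TG cells and 189 CPM in WT B cells, where 35.02% and 6.49% of cells held a UMI, although B cells should lack it. The WT cells without any of the markers held it at 49.8 CPM. Gzmb, which encodes granzyme B, was at 1118 and 487 CPM, a ratio of 1.198 (0.91 to 1.502), and had 1117 and 964 CPM in cells with at least 2 markers. A larger share of WT than of TG cells of that class was CD4-high, and Gzmb was lower in CD4-high TG cells. Of 13 granule genes, 3 were higher in TG and 0 lower, with a median of 0.12. Perforin and Nkg7 were within 2-fold, with ratios of 0.47 (−0.12 to 1.099) and 0.09 (−0.05 to 0.24).

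Ccl5, at 28509 CPM in TG cells and 16259 CPM in WT, had a ratio of 0.81 (0.76 to 0.86). Ifng was at 287 and 191 CPM, a ratio of 0.59 (0.10 to 1.101). Tnf was at 59.9 and 95.6 CPM, a ratio of −0.67 (−1.46 to 0.15). Of 8 cytokine genes measured 0 were more than 2-fold higher and 1 was lower.

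Receptors of the NK type were sparse in WT. Of 20 on the list 10 reached 50 UMIs over both sums, and 5 of these had at most 6 UMIs in WT. More than 2-fold higher in TG were 8 of the 10 and lower 0, with a median of 2.36. Klrg1 is counted among them. Because those 5 genes reached the minimum through their TG UMIs, the count is a description of the genes that passed and no measure of the list. In the other CD8αβ T cells 11 of 20 were higher in TG and 0 lower, with a median of 1.11. In cluster 7 it was 11 of 19 and 0, with a median of 1.19. Over all genes the medians were 0.02 in the other CD8αβ T cells and 0.01 in cluster 7. The share of all genes past 2-fold was not computed for cluster 7, so its count has no such share beside it. Klre1, a lectin-like receptor, was at 538 CPM in TG cells and 100 CPM in WT, a ratio of 2.42 (1.81 to 3.12). Klrb1c, which encodes NK1.1, had 110 and 4 UMIs, and Klra9, of the Ly49 family, had 122 and 6 UMIs. Among cells with at least 1 marker the median of the list was 1.46, and among cells with at least 2 it was 0.74. Ncr1, which defines NK cells, had 25 UMIs in TG, in 18 cells, and 0 in WT, where a count of 0 allows up to 13.7 CPM. The NK marker sum stood beside this at 463 CPM in TG cells and 214 CPM in WT, and its part in the result was not tested.

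Effector transcription factors were higher in TG in 4 of 11 cases and lower in 0, with a median of 0.71, but in cells with at least 2 markers the median was −0.03. Tbx21 was at 343 and 141 CPM, a ratio of 1.28 (0.74 to 1.87), and Id2, which holds back E proteins, was at 1277 and 583 CPM, a ratio of 1.13 (0.86 to 1.41). In cells with at least 2 markers their ratios were 0.52 (−0.26 to 1.41) and 0.93 (0.47 to 1.44). Tcf7 was at 236 and 542 CPM, a ratio of −1.202 (−1.55 to −0.85), but in cells with at least 2 markers it was at 212 and 193 CPM. The WT cells with none of the markers held it at 764 CPM. Bach2, which represses effector genes, had 8 UMIs in TG and 16 in WT.

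Emb, which encodes the adhesion protein embigin, stood furthest below WT among the ranked genes. It was at 35.4 CPM in TG (26 UMIs) and 464 CPM in WT (102 UMIs), a ratio of −3.71 (−4.39 to −3.08). The ratio was −3.53 (−4.53 to −2.54) in cells with at least 2 markers and −4.09 (−5.70 to −2.48) in those of them that were CD4-low, so it was as far below WT among cells that held the markers. Over the other CD8αβ T cells it was −1.28.

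Il7r was at 66.7 CPM in TG cells and 455 CPM in WT, a ratio of −2.77 (−3.29 to −2.26). In cells with at least 2 markers it was at 56.0 and 52.6 CPM, and the WT cells with none held it at 681 CPM. The 52.6 CPM of WT rest on 3 UMIs, so how near that level lies to TG is poorly measured. The WT cells with 1 marker held Il7r at 356 CPM, so the lower level was seen in WT cells with at least 2 markers. Cd28, the costimulatory receptor, was at 73.5 and 319 CPM, a ratio of −2.12 (−2.66 to −1.58), and at 80.2 and 228 CPM in cells with at least 2 markers, a ratio of −1.51 (−2.40 to −0.51). A larger share of that class was CD4-high in WT than in TG. Cd28 was higher in CD4-high than in CD4-low TG cells, so the second ratio also mixes CD4 content. In B cells Emb, Il7r and Cd28 were also lower in TG, at 19.1, 23.2 and 5.36 CPM against 62.6, 91.0 and 42.9 CPM.

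Of 14 genes of circulation and exit 4 were higher in TG and 1 lower, with a median of 0.42 and 13 of the 14 above 0, and the markers Cx3cr1 and S1pr5 are among the 4. The lower one, Ccr2, was at 55.8 CPM in TG cells and 205 CPM in WT, a ratio of −1.88 (−2.52 to −1.23), and −2.81 (−3.66 to −1.93) in cells with at least 2 markers. Of the residency list of 12 genes 1 was higher and 3 lower, with a median of −0.63, and in B cells 6 of 13 were lower and 0 higher, with a median of −0.92. Cxcr6, a receptor of liver-resident T cells, was at 57.2 and 196 CPM, Cxcr3 at 53.1 and 205 CPM, and Cd69, an early activation and retention protein, at 109 and 237 CPM. Itga1, the integrin CD49a, went the other way at 120 and 41.0 CPM, a ratio of 1.55 (0.56 to 2.72). The α4 integrin gene Itga4 was at 1412 and 1279 CPM, a ratio of 0.14 (−0.05 to 0.34).

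Checkpoint genes were sparse, and of 12 on the list 3 reached 50 UMIs, 1 higher, 1 lower and 1 within 2-fold, with a median of 0.38. Lair1, an inhibitory collagen receptor, was the higher one at 106 and 40.98 CPM. Tox, a factor of chronically stimulated T cells, had 14 UMIs in TG and 29 in WT, a ratio of −2.79 (−3.83 to −1.83), and Tigit had 2 and 15 UMIs. Lag3 was at 43.6 and 105 CPM, a ratio of −1.27 (−2.08 to −0.43). Of the costimulation list of 10 genes 2 were lower and 0 higher, and in B cells 5 of 12 were lower and 0 higher, with a median of −0.86. Cd27 was at 54.5 and 187 CPM, with a ratio of −1.78 (−2.44 to −1.11).

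Cytokine receptors included both directions, with 2 of 11 higher and 2 lower. Il18rap, the accessory chain of the IL-18 receptor, was at 378 CPM in TG cells and 95.6 CPM in WT, a ratio of 1.98 (1.34 to 2.70), while Il18r1, its ligand-binding chain, was at 73.5 and 178 CPM, a ratio of −1.27 (−1.89 to −0.64). Il12rb2, a chain of the IL-12 receptor, had 64 and 3 UMIs.

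In the TGF-β pathway, Tgfbr2 was at 410 CPM in TG cells and 168 CPM in WT, a ratio of 1.28 (0.79 to 1.82), against 0.87 in the other CD8αβ T cells. The transgene is of human sequence, and whether its reads are counted under Tgfbr2 was not given in the sources used here. Ski, a repressor of SMAD proteins, was at 127 and 59.2 CPM, a ratio of 1.097 (0.25 to 2.06). Pmepa1, a target of TGF-β, had 0 UMIs in TG and 6 in WT. Of 5 pathway genes measured, 2 were higher and 0 lower.

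Of 20 interferon response genes 0 were more than 2-fold higher and 1 lower, with a median of 0.10, and of 12 S100 and annexin genes 0 were past 2-fold. Of 5 cell division genes 1 was higher, and of 22 genes of T cell receptor signalling 2 were lower, with a median of −0.34, against 13 of 22 lower in B cells, with a median of −1.18. The median over all genes was 0.02.

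The CD4-high TG cells shared the markers and differed in other genes from the CD4-low TG cells. Klrg1 was at 1080 CPM in CD4-high and 792 CPM in CD4-low cells, Cx3cr1 at 1217 and 973 CPM, and Gzma at 8981 and 9931 CPM. Gzmk was at 24.96 and 167 CPM, Prf1 at 24.96 and 226 CPM, and Gzmb at 512 and 1287 CPM. Klrk1, which encodes NKG2D, was at 119 and 414 CPM, and Cd28 at 162 and 48.8 CPM. Levels of Klrg1, Cx3cr1 and Gzma were thus within 1.5-fold of each other, while Prf1 and Gzmk were lower in the CD4-high cells. Gzmk and Prf1 rest on 4 UMIs each in CD4-high cells.

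Surface proteins were read on the same cells, and 48 antibodies are described. The panel held no KLRG1 or CX3CR1 antibody. CD49d had a median of 3.25 in TG cluster 12 and 2.11 in the other TG CD8αβ T cells, and of 2.86 and 1.74 in WT, and its gene Itga4 was higher as well. Cluster 7 of TG was at 3.55 for CD49d and at 1.92 for CD49a, close to cluster 12, while in WT cluster 7 CD49d was at 1.74. CD43, a sialoglycoprotein encoded by Spn, had medians of 3.25 and 2.40 in TG and 3.09 and 2.66 in WT. CD49a had medians of 2.05 and 0.87 in TG and of 0.46 and 0.40 in WT. By a difference of at least 0.5 in the median, 3 antibodies were higher and 0 lower in cluster 12 in TG, and 2 were higher and 0 lower in WT, of 48. CD49d was among them in both genotypes, and CD43 and CD49a in TG alone. The other in WT was CD44, an adhesion receptor of activated T cells, with medians of 3.04 and 2.28, while in TG it had 2.84 and 3.33. In cluster 7 the CD44 median was 3.43 in WT and 3.30 in TG, above that of cluster 12 in both genotypes. Cells share a library, so these medians carry no test.

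Between genotypes the largest difference in cluster 12 was that of CD49a, at 1.58, and CD49b followed, with medians of 1.75 in TG and 0.51 in WT. CD49a was also higher in TG in cluster 7, at 1.92 against 0.48, and over all the other CD8αβ T cells, at 0.87 against 0.40. CD49b was also higher in TG over the other CD8αβ T cells, at 1.28 against 0.23. Within cluster 12 CD49a was at 1.91 in CD4-low and 2.19 in CD4-high TG cells, and at 0.45 and 0.46 in WT. The part of CD4 content in the CD49a difference between genotypes was not tested. CD5, which dampens receptor signals, was lower in TG at 2.48 against 3.12, and in WT its median was 3.32 in cells with no marker and 2.59 in cells with at least 2. In CD4-low cells it was 2.38 in TG and 2.93 in WT, and in the CD4-low cells with at least 2 markers, 168 and 12, it turned to 2.36 and 2.02. CD4-high WT cells had 3.74. Counts at this limit were 4 higher and 1 lower in cluster 12, 3 and 0 in the other CD8αβ T cells, and 1 and 0 in B cells. Besides CD49a and CD49b, the 4 were CD4, with medians of 1.41 in TG and 0.87 in WT, and NK1.1, with 0.94 and 0.42. The CD4 antibody was also higher in TG over the other CD8αβ T cells, at 1.47 against 0.71. In B cells it was at 0.80 against 0.35. NK1.1 was likewise higher in TG over the other CD8αβ T cells, at 0.81 against 0.47, and in B cells, at 0.55 against 0.37. The same CD4 value of 2.5 divided the cells of both libraries.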

How the data were processed

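CD45+ cells from the livers of TG and WT mice were read on the BD Rhapsody platform, in which transcripts and antibody tags of a cell are counted by unique molecular identifiers (UMIs). The authors aligned reads to mm10 with STAR in the BD Rhapsody pipeline, filtered cells and genes by a rule not given in the sources used here, and joined both libraries by canonical correlation in Seurat before clustering. The deposited tables hold UMI counts of 13528 genes and 49 antibodies, natural log centred ratios of the antibodies, the mitochondrial percent of a cell, and cell names. The deposited log-normalised RNA values, a natural log, and embeddings were not used. In cluster 12, the filtered counts of 91 genes in TG and 16 in WT were set to 0 where the library files hold at most 5 UMIs. Cell types were named by the authors from surface proteins and transcripts together.

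UMIs of each gene were added up over the cells of a set, separately for TG and WT, and scaled to CPM, with exact Poisson intervals. Ratios were given as log2 with exact conditional binomial intervals, and shares with Clopper-Pearson intervals. Counts of genes past 2-fold and list medians used genes with at least 50 UMIs over both sums and a pseudocount of 0.5 UMIs. A count of 0 was given a limit of 3 counts. Cells were thinned to 1000 UMIs for shares at equal depth. Scrublet (scanpy 1.11.5, expected rate 5%) marked 0.839% of TG and 3.31% of WT cells, which were kept. TMM factors came from edgeR 4.0.16. The calculation was tested on simulated counts. Python 3.11.15, numpy 2.4.6, scipy 1.17.1 and pandas 2.3.3 were used.

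Named genes were the given markers, members of 20 lists with the highest levels or largest ratios, and the 10 highest and 10 lowest ratios of genes with at least 100 UMIs, at least 10 in each sum and under 50% of UMIs in 3 cells. For cluster 12 against the other cells these had to point the same way in both genotypes. Receptor segments, immunoglobulin, haemoglobin and sex genes were left out of the ranking. The members, lists and classes of cells were chosen with earlier results of these data known. 1 gene and its antibody are not reported here. Alternatives were other scaling, minima, thinning, doublets, comparison cells and, chosen after seeing the data, cells without CD4 antibody, Trdc or B lineage signal and cells that held the markers.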

Additional observations from a re-analysis of the deposited data

How the results depend on the processing

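The numbers of genes past 2-fold depended on the minimum and on depth. At minima of 20 and 200 UMIs the higher genes of cluster 12 numbered 515 and 112 in TG (321 as reported) and 615 and 45 in WT (294), and between genotypes 427 and 22 (157). Lower genes numbered 272 in TG at 200 UMIs (733), 1042 and 118 in WT (570), and between genotypes 246 and 5 (65). After thinning to 1000 UMIs these counts were 155 and 200 in TG, 170 and 176 in WT, and 42 and 17 between genotypes. Without ribosomal and mitochondrial genes in the totals, 211 genes were higher in TG. In WT, 194 were higher with TMM factors and 446 with equal weight for each cell. Without cluster 7, 357 genes were lower in TG and 302 in WT, and the cell division medians turned to 0.59 and 0.84. In TG Ube2c (1.17), Mki67 (1.09), Top2a (1.09), Rrm2 (0.48), Cks1b (1.19) and Smc2 (0.45) turned with them. Gzmk in TG turned to −0.34 with equal weight for each other cluster, and the NK receptor median in WT to 0.0109 after thinning. In cells with at least 2 markers 121 genes were lower in TG than WT.

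Without CD4-high cells, higher and lower genes numbered 298 and 684 in TG, 345 and 549 in WT, and 123 and 53 between genotypes. The share of cluster 12 was 5.36% of all TG and 1.00% of all WT cells, and in TG 32.9% without cells with B lineage UMIs and 35.5% without cluster 7. Without thinning, TG cells with a UMI were 77.9% for Klrg1, 83.9% for Cx3cr1, 66.7% for S1pr5, 59.4% for Zeb2 and 19.7% for Gzmk, and WT cells 21.9% for Klrg1, 38.4% for Cx3cr1, 24.7% for S1pr5, 26.0% for Zeb2 and 27.4% for Gzmk. As shares of antibody counts, 7 antibodies were higher and 2 lower in TG, and 7 and 1 in WT. The cause of these moves was not tested beyond the construction of each alternative. Of the values recomputed under an alternative, 62 of the main counts and shares stayed within the limits set for them and 40 moved past them. Of single genes and lists 1092 stayed within, 146 moved and the 10 past 2-fold that are given above turned in sign. Of 60 list medians 26 took the other sign under at least 1 alternative, 3 of them past 2-fold. Without cluster 7 these included NK receptors (1.29) and costimulation (0.09) in TG, and between genotypes, in cells with at least 2 markers, effector factors (−0.03), memory and naive factors (0.11) and the TGF-β pathway (−0.28). TMM factors moved the median of all genes by −0.11 in WT. No paired analysis was possible because each genotype has 1 library. WT cluster 12, with 73 cells, sets the precision.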

Other observations

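T cell receptor V genes were too sparse to describe a repertoire. In TG cluster 12, 46 UMIs of Trbv genes were found in 34 of 249 cells, and the gene found most often, Trbv15, was in 5 cells. In WT cluster 12, 12 UMIs were found in 12 of 73 cells.

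Slamf7, a receptor of cytotoxic cells, was at 298 CPM in TG cluster 12 and 141 CPM in the other TG CD8αβ T cells, and at 155 and 60.1 CPM in WT. Lair1, an inhibitory collagen receptor, was at 106 and 28.5 CPM in TG and at 41.0 and 14.8 CPM in WT. S100a6, a calcium-binding protein, was at 693 against 831 CPM in TG and at 1298 against 345 CPM in WT. In the S100 and annexin list 1 of 14 genes was more than 2-fold higher in TG cluster 12 and 6 of 14 in WT. Klra3, of the Ly49 family, had 77 UMIs in TG cluster 12 and 1 in WT.

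Between genotypes Slc2a3, a glucose transporter, was at 163 CPM in TG cells and 59.2 CPM in WT, and Nod1, a sensor of bacterial peptidoglycan, at 233 and 77.4 CPM. Ly6e was at 479 and 1166 CPM and Ltb, which encodes lymphotoxin β, at 136 and 328 CPM, and in cells with at least 2 markers Ltb was at 124 and 123 CPM. Fgl2, of the fibrinogen family, was at 157 and 50.1 CPM. The rest of the 10 genes furthest below WT were Sidt1, Trp53, Cd164 and the predicted genes Gm9844 and Gm8369, with log2 ratios from −1.46 to −1.23.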
